A study of Mus musculus with 12 samples.

Results

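Transcripts of 10 repressors of the circadian clock, Per1, Per2, Per3, Cry1, Cry2, Nr1d1, Nr1d2, Ciart, Bhlhe40 and Bhlhe41, were followed across 12 RNA-seq libraries of mouse heart. The genes were chosen by symbol from the 17397 genes of the count table, after their levels in all 12 libraries had been seen, and all 10 passed the filter on low counts. Their levels are therefore a description, and the p-values printed for them are not evidence of a pattern. All mice were male wild-type C57BL/6J mice aged 8 weeks at the start, and there were 4 groups of 3 libraries. The tumour trained group ran on a treadmill and received B16F10 cells, and the tumour group received B16F10 cells without running. The trained group ran without receiving cells, and the control group is labelled saline and did not run. B16F10 is a mouse melanoma line, and 100000 cells went into the tail vein from week 2 on, as a model of cancer cachexia, so no primary tumour was implanted. Running took place on 5 days a week for 4 weeks, at up to 15 m/min in a first week of adaptation and then at 12 m/min for 35 min after a slower start of 5 min. The labels do not say whether the trained mice received saline, whether each library came from a separate mouse, at which hour the hearts were taken, or how long after the last run. Hour of dissection and time since running therefore cannot be told apart from the groups, and p-values reflect only how these libraries vary.

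The circadian clock is a feedback loop of transcription. BMAL1, encoded by Arntl, pairs with CLOCK or NPAS2 and activates genes through E-box sequences, among them the Per and Cry genes, Nr1d1, Nr1d2, Ciart and Dbp. PER and CRY proteins return to the nucleus and inhibit that pair, REV-ERB alpha and beta (Nr1d1 and Nr1d2) repress Arntl and Npas2, CIART is a further corepressor, and BHLHE40 and BHLHE41 (DEC1 and DEC2) compete for E-boxes. In heart muscle the levels of most of these transcripts swing over the day, so that a set of hearts taken at another hour has another set of levels. Per1 and Bhlhe40 are also known as genes that respond quickly to acute stimuli.

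Promoter windows of 300 bases, from 250 bases before to 50 bases after a RefSeq transcript start on GRCm38.p6, were at hand for 8 of the 10 genes, as 9 windows in all since Per1 has a pair of starts. Those of Ciart, Per3 and Nr1d2 are shown, because these 3 genes were called higher in tumour trained against tumour hearts. The Ciart window is at chr3:95882179-95882478, the Per3 window at chr4:151044616-151044915 and the Nr1d2 window at chr14:18239057-18239356, all on the minus strand, and each is written 5′ to 3′ along its gene. Capitals mark the E-box CACGTG and the D-box TTATGTAA, to which DBP and its relatives bind.
Ciart: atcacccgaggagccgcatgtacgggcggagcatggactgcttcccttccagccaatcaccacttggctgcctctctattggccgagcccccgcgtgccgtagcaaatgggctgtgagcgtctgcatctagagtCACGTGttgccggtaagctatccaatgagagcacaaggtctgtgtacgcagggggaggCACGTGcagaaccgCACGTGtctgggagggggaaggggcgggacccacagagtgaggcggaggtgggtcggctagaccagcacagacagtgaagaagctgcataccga
Per3: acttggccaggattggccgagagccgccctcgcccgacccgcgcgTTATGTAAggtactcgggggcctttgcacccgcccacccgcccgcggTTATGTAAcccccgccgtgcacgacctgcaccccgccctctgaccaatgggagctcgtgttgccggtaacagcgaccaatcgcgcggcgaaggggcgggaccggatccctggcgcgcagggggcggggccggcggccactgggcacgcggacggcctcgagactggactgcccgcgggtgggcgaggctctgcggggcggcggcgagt
Nr1d2: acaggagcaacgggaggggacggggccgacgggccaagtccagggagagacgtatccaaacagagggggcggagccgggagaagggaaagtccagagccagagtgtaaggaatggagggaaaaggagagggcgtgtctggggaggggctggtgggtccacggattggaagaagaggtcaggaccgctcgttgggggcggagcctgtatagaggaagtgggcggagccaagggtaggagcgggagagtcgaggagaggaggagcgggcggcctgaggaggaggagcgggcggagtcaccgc
Both strands were searched for 6 motifs. The Ciart window held 3 E-boxes, whose first bases were at -116, -58 and -44 from the start. The Per3 window held no E-box but 2 D-boxes, at -205 and -158. CACGTG was found in 4 of the 9 windows (Ciart, Cry1, Bhlhe41 and the upstream Per1 start), against 7.15% of all 32851 promoter windows. The D-box was found only in the window of Per3 among the 9, against 0.938% of all windows. The E-box variant CACGTT was found in 3 of the 9 windows (Cry1, Cry2 and Nr1d1), against 4.68% of all windows. The REV-ERB and ROR core TAGGTCA, the cyclic AMP element TGACGTCA and the palindromic glucocorticoid response element were found in none of the 9, against 2.61%, 1.79% and 0.475% of all windows. The Nr1d2 window and the downstream Per1 window held none of the 6 motifs, which says only that these letters are not in these 300 bases.

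Library totals ran from 8843906 to 13344847 estimated counts, so that 3 counts stood for 0.225 to 0.339 CPM, that is, counts divided by library size. Counts of the 10 genes ran from 19 to 2958 a library, all above that floor. Levels below are CPM after TMM scaling, which evens out libraries whose few most abundant genes differ. The tissue label says heart, while the extraction protocol names livers: 5 liver genes together reached at most 7.37 CPM, and 10 cardiomyocyte genes together held 98650 to 109997 CPM in every library but tumour 1 and 2. Those 2 libraries stood apart. The cardiomyocyte genes summed to 19323 CPM in tumour 1 and 53233 CPM in tumour 2, against 99762 CPM in tumour 3. A list of 7 melanocyte genes summed to 9401, 4775 and 81.0 CPM in tumour libraries 1, 2 and 3, to 76.8 to 81.7 CPM in tumour trained hearts, 47.4 to 78.5 CPM in trained hearts and 56.6 to 67.4 CPM in control hearts. All 7 had counts in every tumour library, whereas Tyrp1, a melanin synthesis enzyme, was at 1.38 CPM in tumour 3 and at 0 in all 9 libraries of the other groups. Most of the sum in tumour 3 was Mitf, at 63.1 CPM, against 40.2 to 74.5 CPM in those 9. Each gene of the list but Mitf was higher in tumour 3 than in any of the 9. In such bulk samples fewer cells of a type and less RNA per cell cannot be told apart. Tests of repressors against the tumour group are given with and without tumour 1 and 2 where they passed the threshold or the value moved. Controls 2 and 3 also stood apart: 8 immediate early genes, which acute stimuli switch on, summed to 1629 and 1540 CPM there, against 183 CPM in control 1 and 208 to 657 CPM in the other groups.

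**Figure D1:**
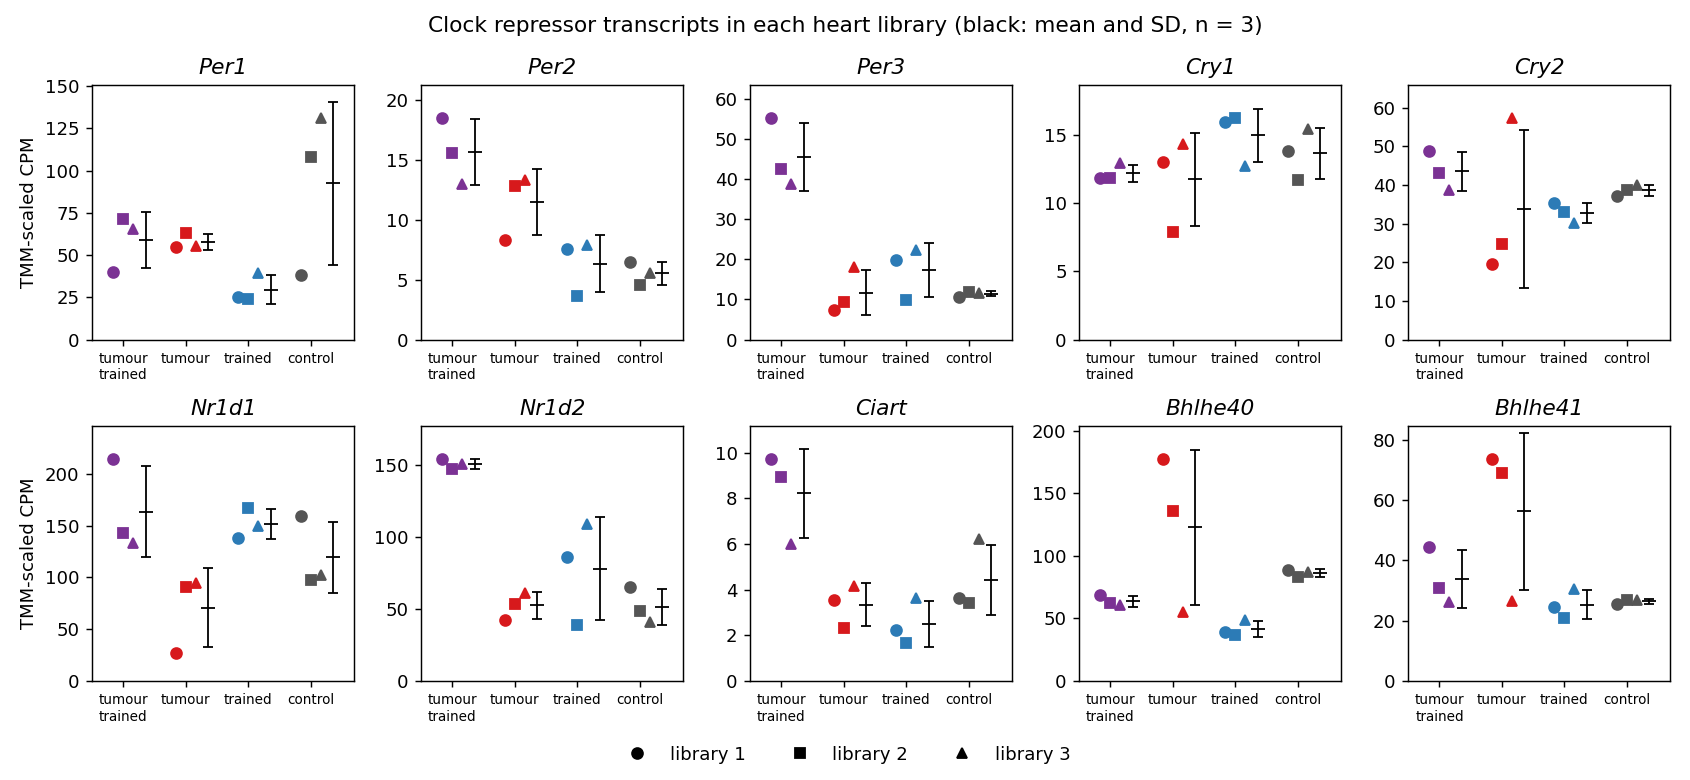
TMM-scaled CPM (vertical axis, starting at 0) of each of the 10 repressors in the 12 heart libraries, with points by group and library and black bars for mean and SD (n = 3). The 3 tumour trained libraries lie above all 9 others for Per3, at 38.9 to 55.2 CPM, and for Nr1d2, at 147 to 154 CPM, while tumour 1 and 2 hold the 2 highest values of Bhlhe40 and of Bhlhe41.

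Per kilobase of annotated exon, the 10 transcripts spread widely in level. Nr1d1 was the most abundant in tumour trained, trained and control hearts, at 53.1 ± 14.4, 49.3 ± 4.74 and 38.8 ± 11.2 CPM per kb (SD, n = 3 each). Next per kb stood Nr1d2 in the tumour trained hearts (27.9 ± 0.649) and in the trained hearts (14.4 ± 6.61), and Bhlhe40 in the control hearts (18.3 ± 0.652 CPM per kb). Per2 was the least abundant in tumour trained, trained and control hearts, at 2.68 ± 0.470, 1.08 ± 0.401 and 0.948 ± 0.166 CPM per kb. In trained and control hearts Ciart (1.11 ± 0.447 and 1.95 ± 0.685 CPM per kb) and Per3 (1.80 ± 0.692 and 1.19 ± 0.0669 CPM per kb) lay close above Per2, and the order among these 3 in trained hearts was within their spread. In tumour hearts Per3 was the lowest of the 10, at 1.21 ± 0.584 CPM per kb, and Bhlhe40 the highest, at 26.1 ± 13.2 CPM per kb, again with overlapping values of the neighbouring genes.

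The 3 Per transcripts encode the period proteins, which carry the feedback signal into the nucleus. Per2 and Per3 had r = 0.69 over the 12 libraries and 0.90 without tumour 1 and 2, while Per1 had r = 0.07 with Per2 and -0.05 with Per3 over the 12, and 0.04 and -0.01 over the 10, as a description of libraries that share their groups. Per3 had 55.2, 42.5 and 38.9 CPM in tumour trained hearts, 7.42, 9.47 and 18 CPM in tumour hearts, 19.8, 9.80 and 22.4 CPM in trained hearts, and 10.7, 11.9 and 11.7 CPM in control hearts. Every tumour trained library lay above all 9 others, and the remaining groups overlapped one another. In the fit of all 12 libraries the log2 fold change was 1.98 ± 0.35 (SE) against tumour hearts, 1.40 ± 0.35 against trained hearts and 1.99 ± 0.35 against control hearts. The adjusted p was 0.0357, 1 and 0.621 for these 3 comparisons (edgeR quasi-likelihood test). Without tumour 1 and 2 the difference from the tumour heart left was 1.32 ± 0.37 (adjusted p = 0.145, with 0.716% of all genes called) and that from control hearts 1.99 ± 0.26 (adjusted p = 0.0321, with 0.0385% called).

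Per2 was higher in both groups given B16F10 cells than in both groups without. It had 18.5, 15.6 and 13 CPM in tumour trained hearts and 8.32, 12.8 and 13.3 CPM in tumour hearts, against 7.53, 3.64 and 7.87 CPM in trained hearts and 6.51, 4.57 and 5.57 CPM in control hearts. All 6 libraries of mice given B16F10 cells (8.32 to 18.5 CPM) lay above all 6 without (3.64 to 7.87 CPM), a grouping that was looked at after the values were seen. Of all 12778 genes tested, 0.524% separated the libraries in this way and direction. None of the other 9 repressors did. For Per2 the log2 fold change was 1.04 ± 0.31 for tumour against control (adjusted p = 0.0601), 1.31 ± 0.31 for tumour trained against trained (adjusted p = 1) and 0.46 ± 0.30 for tumour trained against tumour (adjusted p = 0.297). Tumour 3 alone, with few melanocyte transcripts, gave 1.27 ± 0.35 against control (adjusted p = 0.118), and tumour trained hearts differed from it by 0.23 ± 0.34 (adjusted p = 0.785). With DESeq2 the tumour against control difference passed the threshold (log2 fold change 0.99, adjusted p = 0.0242).

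Per1 had 40.1, 71.6 and 65.3 CPM in tumour trained hearts, 54.9, 63.1 and 55.3 CPM in tumour hearts, 25.1, 23.8 and 39.6 CPM in trained hearts, and 38.1, 108 and 131 CPM in control hearts. The highest levels were those of controls 2 and 3, and control 1 lay within the range of the trained libraries. These are the same 2 control libraries whose immediate early genes summed to 1629 and 1540 CPM, and control 1, at 183 CPM, had the lowest sum of the 12. The part of this in the Per1 difference was not tested. The fit gave -1.65 ± 0.39 on the log2 scale for trained against control (adjusted p = 1) and 1.00 ± 0.39 for tumour trained against trained (adjusted p = 1). The tumour trained and trained groups did not overlap, with 40.1 CPM as the lowest tumour trained value and 39.6 CPM as the highest trained value. With control 1 as the only control, the tumour trained and tumour groups lay above it rather than below, at 0.63 and 0.57 on the log2 scale.

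**Figure D2:**
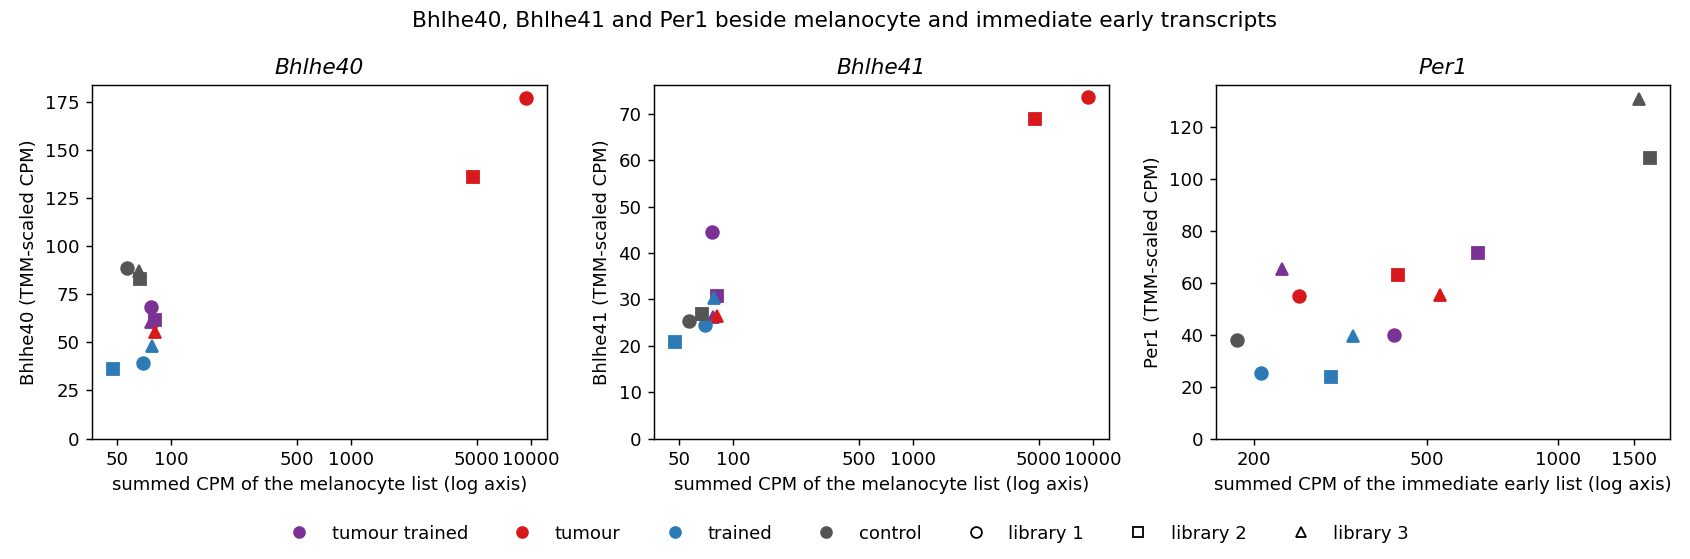
TMM-scaled CPM of Bhlhe40, Bhlhe41 and Per1 (vertical axes, starting at 0) against the summed CPM of a melanocyte or an immediate early gene list (log axes) in 12 libraries, 1 point each. Tumour 1 and 2 are far right in both Bhlhe panels, at 9401 and 4775 CPM of melanocyte transcripts, and controls 2 and 3 are far right in the Per1 panel, at 1629 and 1540 CPM of immediate early transcripts.

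The 2 Cry transcripts, which encode the cryptochromes that bind and inhibit CLOCK and BMAL1, had log2 fold changes of up to 0.41 in either direction in the 5 group comparisons when all 12 libraries were fitted. Cry1 had 11.8, 11.8 and 12.9 CPM in tumour trained hearts, 13, 7.87 and 14.3 CPM in tumour hearts, 15.9, 16.2 and 12.7 CPM in trained hearts, and 13.8, 11.7 and 15.4 CPM in control hearts. Every group overlapped with every other, and the largest log2 fold change of Cry1 over the 5 group comparisons was -0.29 ± 0.23 for tumour trained against trained (adjusted p = 1). Cry2 had 48.8, 43.0 and 38.7 CPM in tumour trained hearts, 19.6, 24.7 and 57.3 CPM in tumour hearts, 35.3, 33.1 and 30.1 CPM in trained hearts, and 37.1, 38.7 and 40.0 CPM in control hearts. Tumour 1 and 2, which also had the lowest cardiomyocyte sums, held the 2 lowest Cry2 values, and tumour 3 held the highest. Trained hearts lay below control hearts without overlap, by -0.23 ± 0.31 on the log2 scale (adjusted p = 1), and below tumour trained hearts, which were higher by 0.41 ± 0.32 (adjusted p = 1). The tumour trained against tumour difference of Cry2, 0.37 ± 0.31, turned to -0.41 ± 0.15 without tumour 1 and 2 (adjusted p = 0.422 and 0.252). Tumour against control, Cry2 was at 0.58 ± 0.15 without those 2 libraries (adjusted p = 0.101). With tumour 3 left out instead, Cry2 was at 1.00 in tumour trained against tumour hearts (adjusted p = 4.81e-04, with 6619 of 13289 genes called). It was then at -0.85 in tumour against control hearts, with 7043 of 13289 genes called. The tumour comparisons of Cry2 thus turned on which tumour libraries were used.

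Nr1d1 and Nr1d2 encode the haem-binding nuclear receptors REV-ERB alpha and beta. Nr1d2 had 154, 147 and 151 CPM in tumour trained hearts, 42.1, 53.7 and 61.3 CPM in tumour hearts, 85.8, 38.8 and 109 CPM in trained hearts, and 64.9, 48.8 and 40.6 CPM in control hearts. The tumour trained libraries were both the highest of the 12 and the closest to one another, and the remaining 3 groups overlapped. The log2 fold change was 1.53 ± 0.32 against tumour hearts (adjusted p = 0.0357), 0.95 ± 0.31 against trained hearts (adjusted p = 1) and 1.55 ± 0.32 against control hearts (adjusted p = 0.766). Against tumour 3 alone it was 1.28 ± 0.44 (adjusted p = 0.23). Within the trained group Nr1d2 ranged from 38.8 to 109 CPM, and trained 2, the lowest, was also the lowest of that group for Per1, Per2, Per3, Ciart, Bhlhe40 and Bhlhe41, but the highest for Nr1d1 and Cry1, with Cry2 in between.

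Nr1d1 had 214, 143 and 133 CPM in tumour trained hearts, 26.7, 90.3 and 95.0 CPM in tumour hearts, 138, 167 and 149.8 CPM in trained hearts, and 159, 97.2 and 102 CPM in control hearts. The tumour hearts were lowest and did not overlap with any other group. Tumour 1, at 26.7 CPM, was far below the rest and was the library with the fewest cardiomyocyte transcripts. The log2 fold change was 1.21 ± 0.40 for tumour trained against tumour (adjusted p = 0.071) and -0.76 ± 0.39 for tumour against control (adjusted p = 0.185). With tumour 3 as the only tumour library they were 0.76 ± 0.31 and -0.32 ± 0.30 (adjusted p = 0.294 and 0.773). Unlike Nr1d2, Nr1d1 differed little between tumour trained and trained hearts, by 0.11 ± 0.39. Nr1d1 shares 263 of its 3077 exon bases with Thra, the thyroid hormone receptor gene on the opposite strand, and the strand setting of the counting was not given in the sources used here, and reads from the shared stretch cannot be assigned to either gene. It was also the only gene of the 10 with counts that were not whole.

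Ciart, which encodes a corepressor of CLOCK and BMAL1, rested on the fewest counts, from 19 to 92 a library. It had 9.71, 8.95 and 6.00 CPM in tumour trained hearts, 3.53, 2.30 and 4.15 CPM in tumour hearts, 2.24, 1.65 and 3.62 CPM in trained hearts, and 3.64, 3.41 and 6.2 CPM in control hearts. The tumour trained libraries lay above all tumour and all trained libraries, while control 3 reached into their range. The log2 fold change was 1.31 ± 0.36 against tumour hearts (adjusted p = 0.0484), 1.72 ± 0.38 against trained hearts (adjusted p = 1) and 0.90 ± 0.36 against control hearts (adjusted p = 0.766). Trained hearts were the lowest group, at -0.82 ± 0.38 against control hearts (adjusted p = 1). The difference between the 2 training effects, the interaction of tumour and training, was 2.13 ± 0.53 on the log2 scale, the largest of the 10 (adjusted p = 0.286), and with DESeq2 it was 2.17 (adjusted p = 0.0175). Without tumour 1 and 2 this interaction of Ciart was 1.79 ± 0.57 (adjusted p = 0.359). Against tumour 3 alone the tumour trained hearts were higher by 0.97 ± 0.45 (adjusted p = 0.346).

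Bhlhe40 and Bhlhe41 encode basic helix-loop-helix repressors. Bhlhe40 had 68.7, 61.8 and 60.5 CPM in tumour trained hearts, 177, 136 and 55.3 CPM in tumour hearts, 39.3, 36.3 and 48.4 CPM in trained hearts, and 88.8, 82.9 and 87.3 CPM in control hearts. Tumour 1 and 2 were the highest of all libraries, and tumour 3 was lower than every control and every tumour trained library. Apart from the tumour group the others did not overlap: trained hearts were lowest, tumour trained hearts intermediate and control hearts highest. The log2 fold change was -0.95 ± 0.31 for tumour trained against tumour (adjusted p = 0.0732) and 0.51 ± 0.31 for tumour against control (adjusted p = 0.246). Both turned round without tumour 1 and 2, to 0.19 ± 0.16 and -0.63 ± 0.17 (adjusted p = 0.608 and 0.103).

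Trained against control, Bhlhe40 differed by -1.06 ± 0.32 on the log2 scale (adjusted p = 1), the most of the 10 after Per1, with no overlap between the groups. Bhlhe40 was at 88.8, 82.9 and 87.3 CPM in controls 1, 2 and 3, where immediate early genes summed to 183, 1629 and 1540 CPM. The part of acute stimuli in the Bhlhe40 difference was not tested. The SE in the fit of 12 libraries includes the spread of the tumour group. With tumour 1 and 2 left out the value was -1.06 ± 0.11 (adjusted p = 0.0207), and Bhlhe40 was then the only gene called of 12995 tested (0.00770%). On the 6 trained and control libraries alone it was -1.07 ± 0.13 (adjusted p = 0.235), with 0 of 12353 genes called. This difference of Bhlhe40 thus passed the threshold in 1 of 21 alternatives and not in the fit of all libraries. The interaction of tumour and training was 0.11 ± 0.44 for Bhlhe40 over the 12 libraries (adjusted p = 0.898) and ran from -0.20 to 0.48 with single libraries left out. It was 1.25 ± 0.20 without tumour 1 and 2 (adjusted p = 0.0366, with 0.246% of all genes called), where the tumour group stood as 1 library assumed to vary like the others. Scaled to cardiomyocyte genes it was -1.60, so its direction for Bhlhe40 depended on the setting.

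Bhlhe41 had 44.5, 30.7 and 26.1 CPM in tumour trained hearts, 73.6, 69.0 and 26.4 CPM in tumour hearts, 24.5, 20.8 and 30.4 CPM in trained hearts, and 25.4, 26.8 and 26.9 CPM in control hearts. As for Bhlhe40, tumour 1 and 2 were high and tumour 3 was not, and the groups overlapped in all 5 comparisons. Tumour against control was 1.10 ± 0.33 on the log2 scale (adjusted p = 0.0631) and became 0.01 ± 0.27 without tumour 1 and 2 (adjusted p = 0.994). The 2 libraries high in Bhlhe40 and Bhlhe41 are thus those in which melanocyte transcripts summed to 9401 and 4775 CPM, and tumour 3, with 81.0 CPM of those transcripts, was not high in either gene. The part of these transcripts in the group differences was not tested beyond leaving the 2 libraries out. Separate transcript models on the opposite strand cover 19% of the exon bases of Bhlhe41, 4.67% of those of Cry2 and 2.51% of those of Bhlhe40. The same limit as for Nr1d1 applies.

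**Figure D3:**
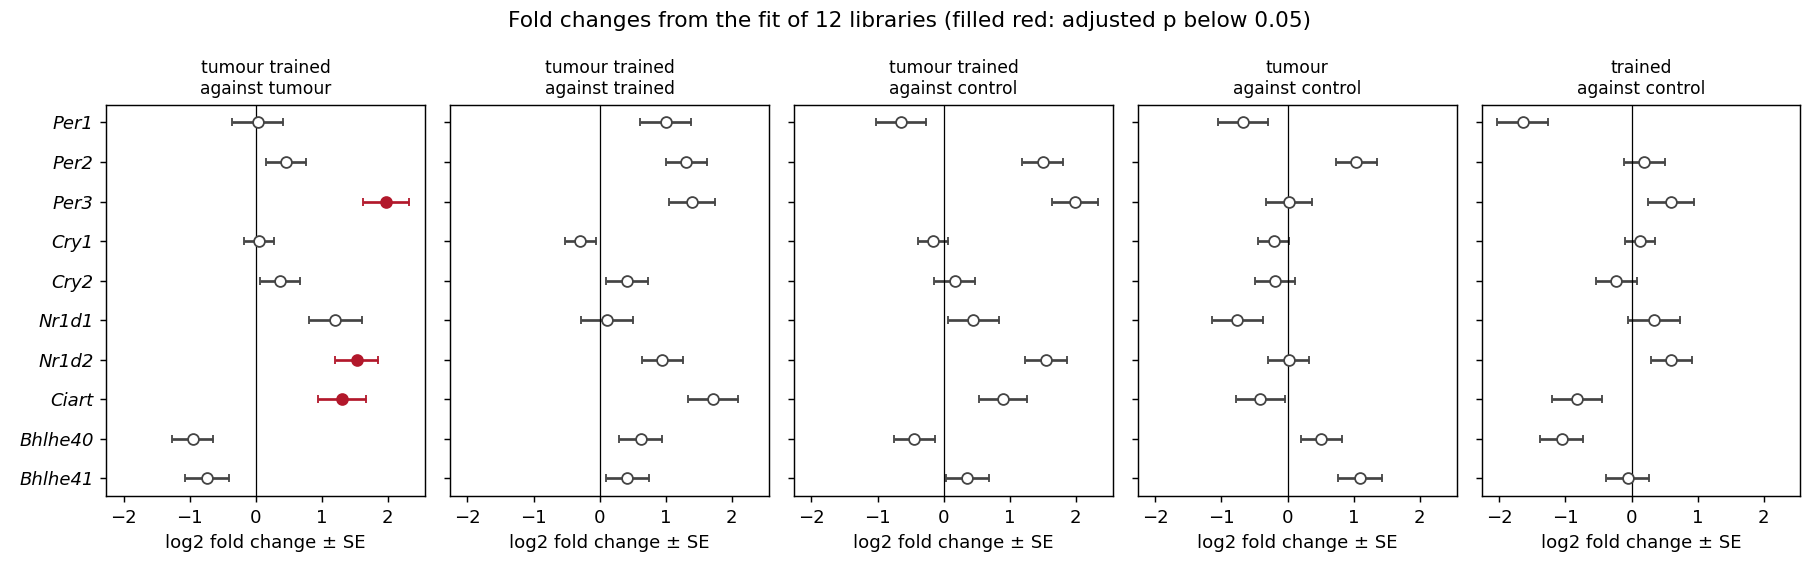
Log2 fold changes with SE (horizontal axis) of the 10 repressors (vertical axis) in 5 group comparisons from the quasi-likelihood fit of 12 libraries. Filled red points mark an adjusted p below 0.05 over 12778 genes: Per3, Nr1d2 and Ciart, at 1.98, 1.53 and 1.31, in tumour trained against tumour, with open points elsewhere.

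Counted over the set, 3 of the 10 repressors were called higher and 0 lower in tumour trained against tumour hearts, where 9.05% of all genes were called, 1.79% as higher and 7.25% as lower. The comparisons share libraries, and since the genes were chosen from these levels nothing is read from the count. In tumour against control hearts 0 of 10 were called, with 6.79% of all genes called. In each of the 3 comparisons among tumour trained, trained and control hearts 0 of 10 were called by edgeR, with 0% of all genes called, and in the interaction 0 of 10 with 0.0235%. At an unadjusted p below 0.05, 6 of the 10 passed in tumour trained against tumour (31.9% of all genes), 2 in tumour against control (34.4%) and 4 in tumour trained against control (6.46%). The same threshold was passed by 5 in tumour trained against trained (1.17%), 2 in trained against control (2.18%) and 3 in the interaction (14.4%). Scaled to the cardiomyocyte genes, which moves the median log2 fold change of all genes in tumour trained against tumour hearts by -1.42, Per3 was at 0.88, Nr1d2 at 0.25 and Ciart at -0.08, and none of these 3 was called. With TMM scaling the 3 calls remained without trained 2 (1242 of 13293 genes called) and without tumour 3 (6619 of 13289). That of Per3 also remained without tumour 1 (111 of 12853). Leaving out any of the other 9 libraries left none of the 10 called and 3 to 8 genes called in the whole table. By its own scaling DESeq2 called 5, 2, 3, 0, 0 and 1 of the 10 in the 6 comparisons in that order, beside 18.7%, 17.2%, 0.0974%, 0.0173%, 0.0120% and 2.30% of all genes.

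Groups were also compared by whether their libraries overlapped, as a description of genes chosen from these levels, from which nothing is read. In tumour trained against trained hearts, 7 of the 10 repressors had all tumour trained libraries above all trained libraries (Per1, Per2, Per3, Cry2, Nr1d2, Ciart and Bhlhe40) and 0 the other way, against 7.90% and 8.04% of all genes. Their median log2 fold change in this comparison was 0.79, against 0.01 for all genes. Tumour 1 and 2 and the control libraries are not part of that separation, and no gene of the table passed the adjusted threshold in the comparison with edgeR. Marker sums also differed between these 2 groups without overlap: 5 endothelial genes summed to 928 to 960.4 CPM in tumour trained and 1084 to 1121 CPM in trained hearts, and the 10 cardiomyocyte genes to 98650 to 102705 CPM in tumour trained and 103783 to 109997 CPM in trained hearts. Trained 2 stood apart from the other 2 trained libraries, with a chi-square per gene of 30.73 and 33.01, against 4.37 between those 2. The part of these differences in the separation was not tested. In tumour trained against tumour hearts 4 of the 10 genes lay above without overlap (Per3, Nr1d1, Nr1d2 and Ciart) and 0 below, against 13.5% and 14.5% of all genes, with a median of 0.41 against -0.04. All 3 tumour trained libraries also lay above tumour 3 alone for these 4 genes and for Bhlhe40, and below it for Cry1 and Cry2. The share of all genes that lie so against 1 library was not counted, so nothing is read from this. In tumour trained against control hearts 3 lay above (Per2, Per3 and Nr1d2) and 1 below (Bhlhe40), against 21.9% and 17.4% of all genes, with a median of 0.40 against 0.00. Tumour against control, 1 lay above (Per2) and 1 below (Nr1d1), against 14.2% and 11.8%, with a median of -0.09 against 0.11. Trained against control, 0 lay above and 2 below (Cry2 and Bhlhe40), against 4.04% and 5.44%, with a median of 0.04 against 0.01. Fitted with the 6 libraries of these 2 groups only, tumour trained against control gave adjusted p-values below the threshold for 5 of the 10, Per2, Per3, Nr1d2 and Ciart higher and Bhlhe40 lower, and 20.4% of all genes were called.

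Of 7 activators tested (Arntl, Arntl2, Clock, Npas2 and the ROR genes), 0 were called in any of the 6 comparisons by edgeR or DESeq2. At an unadjusted p below 0.05 in edgeR, 2, 1, 3, 2, 0 and 0 of the 7 passed, in the order of comparisons above, beside 31.9%, 34.4%, 6.46%, 1.17%, 2.18% and 14.4% of all genes. Arntl, which REV-ERB proteins repress, had 8.24, 16 and 16.5 CPM in tumour trained hearts, 14.8, 21.8 and 37.8 CPM in tumour hearts, 30.6, 30.4 and 25.7 CPM in trained hearts, and 28.8, 37.6 and 40.5 CPM in control hearts. Tumour trained libraries were lowest, overlapping the tumour group only. The log2 fold change was -1.09 ± 0.34 against trained hearts (adjusted p = 1) and -1.39 ± 0.34 against control hearts (adjusted p = 0.766). Against tumour hearts it was -0.86 ± 0.34 (adjusted p = 0.11), and -1.49 ± 0.30 without tumour 1 and 2 (adjusted p = 0.0514). Rora went the other way, with 33.6, 35.1 and 37.7 CPM in tumour trained hearts and 22.7, 17.3 and 22.3 CPM in tumour hearts. It had 31.8, 18.9 and 35.2 CPM in trained hearts and 11.9, 16.3 and 27.5 CPM in control hearts. Its log2 fold change in tumour trained hearts was 0.77 ± 0.30 against tumour (adjusted p = 0.106) and 0.93 ± 0.30 against control hearts (adjusted p = 0.766). Npas2, a partner of BMAL1 and another REV-ERB target, had 4.22, 4.64 and 6.10 CPM in tumour trained hearts and 1.91, 6.82 and 9.14 CPM in tumour hearts, against 11.8, 16.1 and 10.5 CPM in trained hearts and 10.6, 13.9 and 10.3 CPM in control hearts. All 6 libraries of mice given cells lay below all 6 without, the reverse of Per2, and 1.08% of all genes separated the libraries in that direction. For Npas2 the log2 fold change was -0.98 ± 0.43 for tumour against control (adjusted p = 0.137), -0.34 ± 0.29 without tumour 1 and 2 (adjusted p = 0.744) and -1.36 ± 0.44 for tumour trained against trained (adjusted p = 1).

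The PAR-bZIP output genes Dbp, Tef and Hlf and their repressor Nfil3 encode proteins that act through D-boxes. Of these 4 genes, 2 were called higher in tumour trained against tumour hearts, where 1.79% of all genes were called higher and 9.05% in either direction. Dbp, a direct E-box target, had 119, 52.4 and 57.0 CPM in tumour trained hearts, 6.34, 8.28 and 18.5 CPM in tumour hearts, 21.4, 9.71 and 38.4 CPM in trained hearts, and 28.8, 8.96 and 9.36 CPM in control hearts. All 3 tumour trained libraries were above all others, at a log2 fold change of 2.80 ± 0.63 against tumour hearts (adjusted p = 0.0357). Hlf had 40.0, 33.5 and 30.3 CPM in tumour trained hearts, against 13.8, 18.1 and 23.2 CPM in tumour hearts, at 0.92 ± 0.23 (adjusted p = 0.0369). Without tumour 1 and 2 neither passed, at 2.03 ± 0.83 for Dbp (adjusted p = 0.295) and 0.56 ± 0.25 for Hlf (adjusted p = 0.336). Nfil3, which represses through the same D-boxes, averaged 16.7 ± 5.67 CPM in tumour trained, 18.7 ± 3.67 in tumour, 22.4 ± 7.65 in trained and 40.9 ± 22.7 CPM in control hearts (SD, n = 3 each) and was called in no comparison by edgeR. No gene of this list was called in the other 5 comparisons by edgeR, where 1, 4, 3, 0 and 2 passed an unadjusted p below 0.05, beside 34.4%, 6.46%, 1.17%, 2.18% and 14.4% of all genes. DESeq2 called 2 of the list in tumour trained against tumour (18.7% of all genes called) and 1 in tumour against control (17.2%). The latter was Nfil3, lower at -1.18 (adjusted p = 0.0437).

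Of 12 genes tested by edgeR whose products modify or bind PER, CRY and REV-ERB proteins, 1 was called lower in tumour trained against tumour hearts (9.05% of all genes called, 7.25% as lower) and 0 elsewhere. Of the 13 tested by DESeq2, 4 were called there (18.7% of all genes) and 1 in tumour against control (17.2%). The gene called by edgeR was Csnk1d, the casein kinase that phosphorylates PER proteins, at 73.3 ± 3.52 CPM in tumour trained and 109 ± 17.1 CPM in tumour hearts (SD, n = 3 each), a log2 fold change of -0.57 ± 0.15 (adjusted p = 0.0401), or -0.34 ± 0.14 without tumour 1 and 2 (adjusted p = 0.301). Of 8 genes under clock control in heart, edgeR called 1 lower in tumour trained against tumour hearts (9.05% of all genes called, 7.25% as lower) and 0 elsewhere. DESeq2 called 3 there (18.7%) and 1 in tumour trained against control (0.0974%). The edgeR call was Cdkn1a, a cell cycle inhibitor also induced by p53, at 28.2 ± 12.2 CPM in tumour trained and 172 ± 35.4 CPM in tumour hearts. Its log2 fold change was -2.61 ± 0.39 (adjusted p = 0.0357), and -2.84 ± 0.45 without tumour 1 and 2. Wee1, a cell cycle kinase and E-box target, averaged 13.8 ± 1.38 CPM in tumour trained, 23.7 ± 10.1 in tumour, 8.94 ± 0.501 in trained and 13.8 ± 2.22 CPM in control hearts and was called in none by edgeR. DESeq2 called Wee1 lower in tumour trained against tumour hearts, at -0.76 (adjusted p = 0.0458), and also Pdk4, at -1.77 (adjusted p = 0.0184). In edgeR Pdk4 was at -1.76 ± 0.60 there (adjusted p = 0.0787), and at -2.74 ± 0.50 without tumour 1 and 2. Of 5 glucocorticoid targets tested, Per1 among them, 1 was called higher and 0 lower in tumour against control hearts by edgeR (6.79% of all genes called). DESeq2 called 3 there (17.2%). The gene called by edgeR was Fkbp5, at 81.6 ± 10.1 CPM in tumour and 17.6 ± 0.726 CPM in control hearts (log2 fold change 2.21 ± 0.19, adjusted p = 4.97e-04, or 2.36 ± 0.21 without tumour 1 and 2). Sgk1, a kinase gene of the same list, was at -1.27 ± 0.40 (adjusted p = 0.0696). Zbtb16, also of this list, was at 1.30 ± 0.46 (adjusted p = 0.0859). Fkbp5 was also called lower in tumour trained against tumour hearts, at -2.38 ± 0.19 (adjusted p = 2.48e-04, with 9.05% of all genes called). In the interaction it was called at -2.20 ± 0.27 (adjusted p = 0.016, with 0.0235% called). The 4 targets other than Per1 summed to 213 to 461 CPM in tumour and 291 to 488 CPM in control hearts. Per1 itself was at -0.68 ± 0.38 (adjusted p = 0.214), at -0.73 ± 0.56 without tumour 1 and 2 (adjusted p = 0.682), and at 0.57 without controls 2 and 3.

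**Figure D4:**
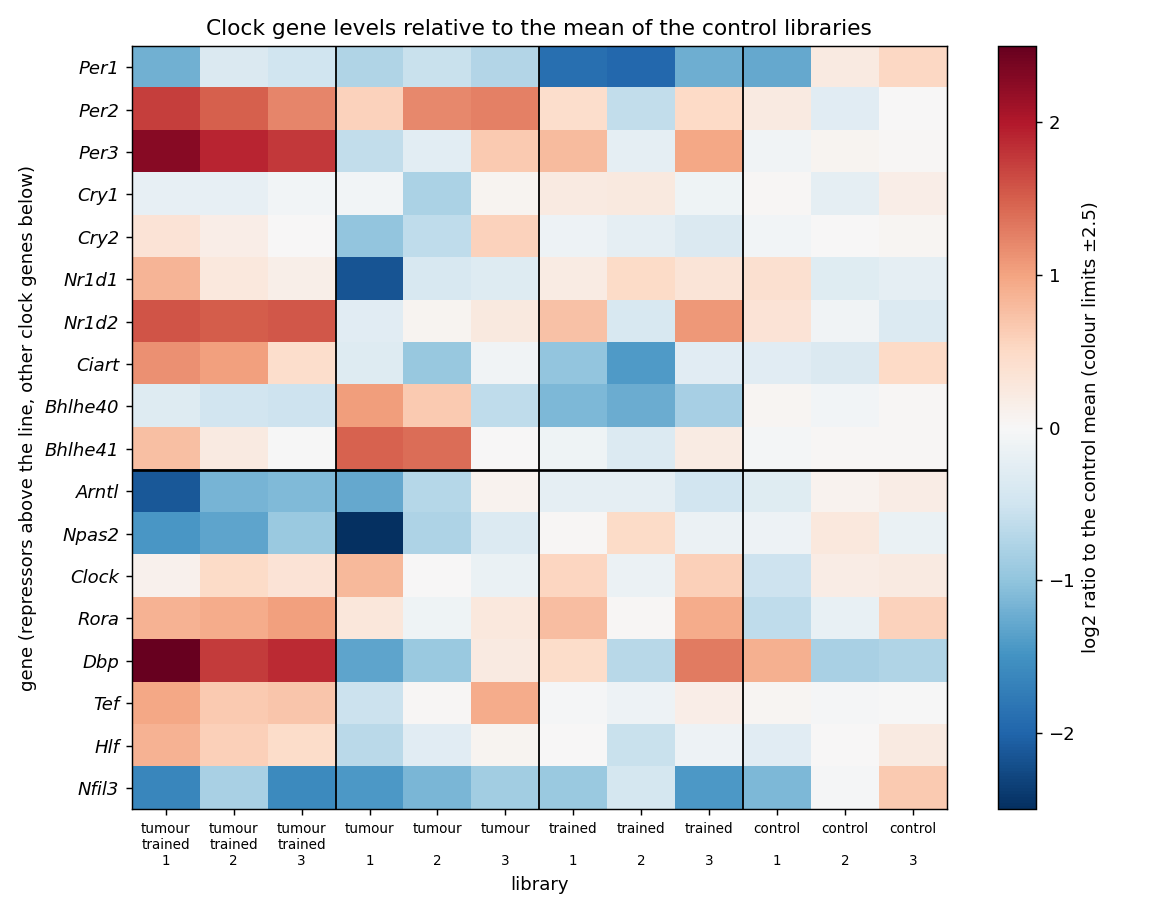
Log2 ratio of each library to the mean of the 3 control libraries (colour, limits ±2.5) for the 10 repressors above the line and 8 other clock genes below it, with libraries in columns by group. In the 3 tumour trained columns Per2, Per3, Nr1d2, Ciart, Dbp, Rora, Tef and Hlf are red, and Per1, Bhlhe40, Arntl, Npas2 and Nfil3 blue. Per1 and Nfil3 are also blue in all tumour and trained columns and in control 1. In tumour 1 and 2 Bhlhe40 and Bhlhe41 are red.

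A ratio of counts within a library does not depend on how libraries are scaled, so repressors were also set against Arntl. Counts of Per3 per count of Arntl were 6.71, 2.66 and 2.36 in tumour trained hearts, 0.502, 0.435 and 0.477 in tumour hearts, 0.646, 0.323 and 0.872 in trained hearts, and 0.372, 0.316 and 0.288 in control hearts. Counts of Nr1d2 per count of Arntl were 18.7, 9.20 and 9.17 in tumour trained hearts, 2.85, 2.46 and 1.62 in tumour hearts, 2.80, 1.28 and 4.23 in trained hearts, and 2.25, 1.3 and 1.00 in control hearts. For both genes every tumour trained library lay above all 9 others, and the tumour libraries, among them tumour 1 with few cardiomyocyte transcripts, lay within the range of the trained libraries. Ciart per Arntl was 1.18, 0.561 and 0.363 in tumour trained hearts, against 0.0543 to 0.239 in the 9 others. Per2 per Arntl was 2.24, 0.980 and 0.790 in tumour trained hearts and 0.563, 0.588 and 0.352 in tumour hearts, against 0.246, 0.120 and 0.306 in trained hearts and 0.226, 0.122 and 0.138 in control hearts. The tumour group thus stood between the tumour trained group and both groups without cells for Per2, with no overlap on either side. Since Arntl itself was lowest in tumour trained hearts, these ratios show unequal levels of the 2 genes and not which of them changed.

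**Figure D5:**
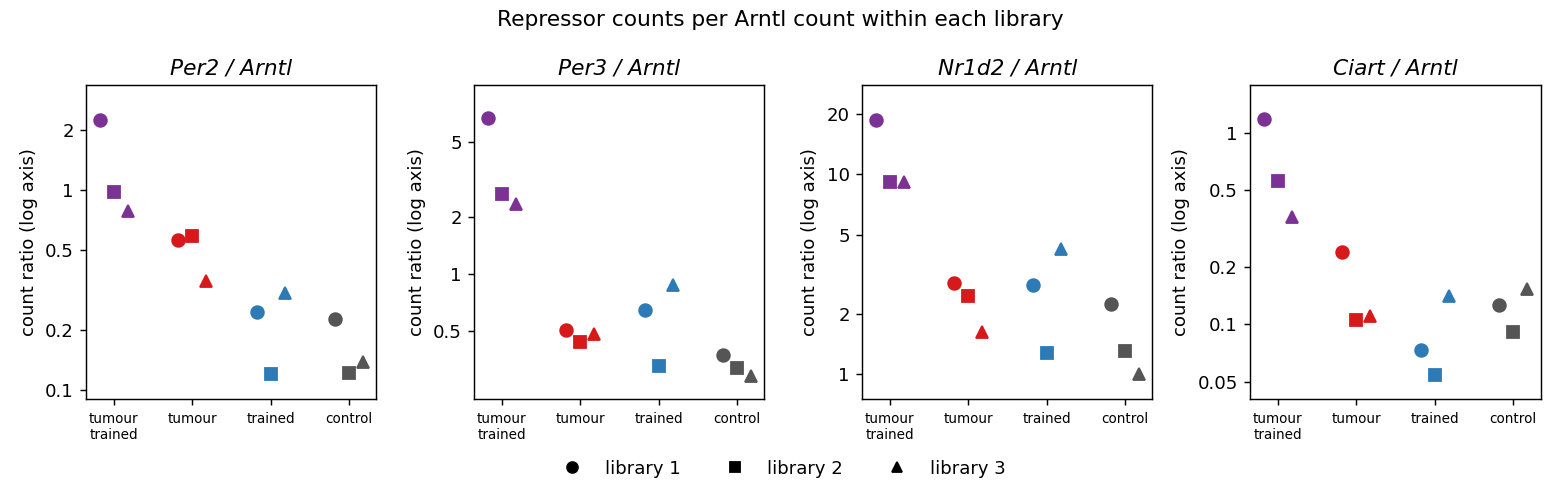
Counts of Per2, Per3, Nr1d2 and Ciart per count of Arntl (vertical log axes) in each of 12 libraries by group. In all 4 panels the 3 tumour trained libraries are above the 9 others, with tumour trained 1 highest at 2.24, 6.71, 18.7 and 1.18.

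Across the 12 libraries the genes whose log2 levels followed a repressor most closely were ranked by Pearson's r as a description, with the groups, the depth and the makeup of tumour 1 and 2 shared by all genes. Dbp was among the 3 closest of 12778 genes to both Per3 (r = 0.926) and Nr1d2 (r = 0.941), and Sms was as close to each (r = 0.937). Hlf was the closest to Ciart (r = 0.845) and Fosl2, a gene of the AP-1 family, the closest to Per1 (r = 0.957). Over the 10 libraries without tumour 1 and 2, Fosl2 stayed among the 3 closest to Per1 (r = 0.963) and Hlf among those of Ciart (r = 0.914). The 3 genes closest to Per3 and to Nr1d2 were then others, with Dbp at r = 0.90 and 0.94. Between Per3 and Nr1d2 themselves r was 0.94 over 12 and over 10 libraries. Bhlhe40 and Bhlhe41 had r = 0.80 over the 12 libraries and 0.33 over the 10. Over the 10, Bhlhe41 was closer to Ciart (r = 0.78), Per3 (r = 0.74) and Per2 (r = 0.70) than to Bhlhe40, and Bhlhe40 had r = 0.73 with Per1.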

How the data were processed

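RNA from hearts of 4 groups of 3 libraries was sequenced, with groups and replicate numbers taken from the sample titles. Extraction used Trizol and a Vazyme VAHTS kit for MGI sequencers, per the labels' protocols. The submitters' processing notes name HISAT2 2.2.1, featureCounts, mm10 and GRCm39. Annotation and strand setting were not given in the sources used here. The authors deposited estimated counts per gene, not normalized, in 1 table, with 7.09% to 8.92% of values not whole, and they were rounded here. A single quasi-likelihood fit of 12 libraries (edgeR 4.0.16, R 4.3.3, TMM, 8 residual degrees of freedom) tested 12778 genes after the default filter had removed 4619. A gene was called where its p, adjusted by Benjamini-Hochberg across all tested genes, was below 0.05. The SE is the log2 fold change over the square root of F. The genes, the lists and the tests were chosen with earlier results of these data known. Named were all 10 repressors, up to 3 genes of each list by p and the 3 genes closest to a repressor. Tyrp1 and Mitf were picked after their values were seen. Replicates differed by more than sampling noise (chi-square per gene 3.81 to 387.57) and none were merged. Alternatives included DESeq2 1.42.0, other scalings and filters, and leaving out libraries. Promoters are RefSeq sequence on GRCm38.p6, and exon lengths come from a GRCm38 annotation. Likeness used log2(CPM + 0.5). Scripts were tested on simulated counts.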

Additional observations from a re-analysis of the deposited data

How the results depend on the processing

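Of 1250 values of the 10 repressors under 21 alternatives, 1097 kept direction and side of the threshold, 45 lost a call, 39 gained one and 69 changed sign. Only the 3 calls of the main fit, in tumour trained against tumour hearts, could be lost. Of the 21 alternatives, Per3 was called in 7, Nr1d2 in 6 and Ciart in 4, so these calls were lost in most alternatives. Called repressors in tumour trained against tumour hearts numbered 3 (1156 of 12778 genes called), against 5 with DESeq2 (2617 of 13983). The number was 0 with the replicate block (18 of 12778) and on the groups compared alone (2 of 12542), where few genes of the whole table were called. The 3 called when scaled to cardiomyocyte genes were others, Cry1, Bhlhe40 and Bhlhe41, all lower, where 8081 of 12778 genes were called. In tumour against control the number was 0, against 2 by library size alone (1971 of 12778 genes called) and 2 with DESeq2 (2463 of 14319). It was 7 when scaled to cardiomyocyte genes, where 9540 of 12778 genes were called. In tumour trained against control it was 0 (0 of 12778 genes called), against 3 with DESeq2 (11 of 11298) and 5 on the groups compared alone (2519 of 12355). In trained against control it was 0 (0 of 12778). In the interaction it was 0 (3 of 12778 genes called), against 1 with DESeq2 (314 of 13647). Fits that left 1 library in a group are left out of these numbers of called repressors. Leaving out single libraries gave 0 to 7 in tumour trained against tumour and 0 to 5 in tumour against control. It gave 0 to 5 in the interaction and 0 in the other comparisons. The ranges above 0 were each highest without tumour 3, where 6619, 7043 and 4002 of 13289 genes were called in that order. The cause was not tested. Scaled by library size alone, the sign changed in tumour trained against tumour, to -0.15 for Per1 and -0.12 for Cry1 and in the interaction, to -0.16 for Bhlhe40. Scaled to cardiomyocyte genes, the sign changed in tumour trained against tumour, to -1.37 for Per1, -0.77 for Per2, -1.40 for Cry1, -0.65 for Cry2 and -0.08 for Ciart, in tumour against control, to 0.80 for Per1, 1.31 for Cry1, 0.90 for Cry2, 0.25 for Nr1d1 and 1.06 for Ciart and in the interaction, to -0.94 for Per2, -0.39 for Cry2, -0.04 for Nr1d1, -0.33 for Nr1d2 and -1.60 for Bhlhe40. With the replicate number as a block, the sign changed in tumour trained against tumour, to -0.03 for Per1, in tumour against control, to -0.04 for Per3. Without tumour 1 and 2, the sign changed in tumour trained against tumour, to -0.25 for Cry1, -0.41 for Cry2, 0.19 for Bhlhe40 and 0.34 for Bhlhe41, in tumour against control, to 0.08 for Cry1, 0.58 for Cry2 and -0.63 for Bhlhe40 and in the interaction, to -0.18 for Cry2 and 0.40 for Bhlhe41. With DESeq2 size factors in edgeR, the sign changed in tumour against control, to -0.02 for Per3 and -0.02 for Nr1d2. With DESeq2, the sign changed in tumour against control, to -0.02 for Per3 and -0.03 for Nr1d2. Fitted on the groups compared alone, the sign changed in tumour against control, to -0.01 for Per3 and -0.01 for Nr1d2. Without controls 2 and 3, the sign changed in tumour against control, to 0.57 for Per1 and -0.34 for Nr1d2, in tumour trained against control, to 0.63 for Per1, in trained against control, to -0.04 for Per2 and -0.07 for Nr1d1. Leaving out single libraries, values that crossed 0 ranged as follows: in the interaction -0.20 to 0.48 for Bhlhe40 and -0.30 to 0.12 for Cry1, in trained against control -0.23 to 0.04 for Bhlhe41 and -0.01 to 0.45 for Per2, in tumour trained against tumour -0.18 to 0.24 for Cry1 and -0.12 to 0.26 for Per1, in tumour against control -0.85 to 0.08 for Cry2, -0.15 to 0.20 for Nr1d2 and -0.48 to 0.25 for Per3, in tumour trained against trained -0.13 to 0.23 for Nr1d1. Scaling to cardiomyocyte genes shifted the median of all genes by -1.42 in tumour trained against tumour, 1.49 in tumour against control and -1.39 in the interaction, and library size alone by -0.18, 0.22 and -0.20, so changes are read relative to those shifts. Same-numbered libraries of different groups did not pair (r of deviations -0.268 to 0.241 over 18 pairs, 3 over 0.1, and 3 of 12 libraries closest to their own number), and with the replicate block 18 genes were called in tumour trained against tumour, against 1156 without it. Depth was lowest for Ciart, with 19 to 92 counts a library.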
